A study of Homo sapiens with 24 samples.

Results

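The genes of central carbon metabolism followed here were 51 enzymes, transporters and regulators of glycolysis and the tricarboxylic acid (TCA) cycle, out of 29794 genes in the count tables. They were chosen by name, from a list of symbols matched to the gene identifiers, and all 51 were found. The list was set with earlier results of these data known. Of these, 50 had enough reads to be tested in both batches. The exception was SLC16A3, a lactate exporter, which had at most 7 reads in any library and lay below the filter on low counts.

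Glycolysis splits glucose into pyruvate in the cytosol. Glucose enters through the SLC2A transporters, is trapped by hexokinase, is committed to breakdown by phosphofructokinase, is split by aldolase and leaves as pyruvate through pyruvate kinase. Pyruvate is either reduced to lactate by lactate dehydrogenase or carried into mitochondria, where the pyruvate dehydrogenase complex, held back by PDK kinases, turns it into acetyl-CoA for citrate synthase and the TCA cycle. Several steps have more than 1 gene, and cultured cells with a high demand for glucose generally favour certain isoenzymes. Aldolase A (ALDOA) is a long-known target of miR-122, the abundant miRNA of hepatocytes.

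The cells were Flp-In T-REx 293, a derivative of the human embryonic kidney line HEK293. They were transduced with a lentiviral vector that carried a miRNA hairpin in the intron of a doxycycline-inducible GFP cassette, or with the parent vector without a hairpin (empty vector), so every group carried the vector and GFP. All groups were selected for 6 days in 1 mg/mL Geneticin and induced for 7 days with 1 µg/mL doxycycline, and replicates were separate transductions of 1 cell line. Batch 1 held empty vector, miR-1 and miR-122 with 2 libraries each, and batch 2 held 3 libraries for each of 6 groups, namely empty vector, miR-155, miR-133a and the related miR-372, miR-373 and miR-302a, 24 libraries in all. Each miRNA was set against the empty vector libraries from its own batch, so the 2 comparisons in batch 1 shared 1 pair of control libraries and the 5 in batch 2 shared 1 set of 3. In these bulk samples fewer cells of a type and less RNA per cell cannot be told apart.

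The libraries held 13047400 to 35040778 exon reads. Markers of the line were high (VIM 908 to 1310, KRT8 176 to 297, KRT18 79.6 to 121 and CDH2 85.6 to 121 CPM, reads scaled to library size), whereas NEFM reached only 4.42 CPM. The summed level of 4 hepatocyte markers was 0.0602 to 0.542 CPM, of 5 striated muscle markers 0.9 to 2.25, of 3 blood markers 0 to 0.241 and of 2 pluripotency markers 0 to 0.154, with NANOG at 0 in all 24 libraries. All 14 pairs of a miRNA with a textbook target were lower in the miRNA group (edgeR quasi-likelihood test), by 0.70 to 1.99 on the log2 scale. The pairs are not separate checks, since LATS2 and TGFBR2 were each paired with miR-302a, miR-372 and miR-373 against the same controls. The targets were listed with earlier results of these data known. Within batch 2, miR-155 replicate 2, miR-302a replicate 2 and miR-372 replicate 2 stood farthest from the other libraries of their groups. Their chi-square per degree of freedom was 16.1 to 35.7, against 1.83 to 13.3 for all other pairs of replicates. This measure uses raw counts and grows with depth, which was greatest in miR-373 replicate 3 (35040778 reads) and miR-372 replicate 3 (25477596 reads). Results that rest on the 3 libraries that stood apart are given with and without them.

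The mature sequences of the miRNAs (RefSeq, GRCh38.p14) are shown 5′ to 3′ because the seed, bases 2 to 8 in capitals, decides which sites in a transcript were counted below. A site was an 8mer (a match to the whole seed followed by A), a 7mer-m8 (the whole seed without that A) or a 7mer-A1 (bases 2 to 7 followed by A).
miR-1-3p: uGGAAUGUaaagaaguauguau
miR-122-5p: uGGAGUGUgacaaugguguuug
miR-133a-3p: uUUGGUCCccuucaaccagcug
miR-155-5p: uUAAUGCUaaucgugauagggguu
miR-302a-3p: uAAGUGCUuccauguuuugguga
miR-372-3p: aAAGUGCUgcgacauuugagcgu
miR-373-3p: gAAGUGCUucgauuuuggggugu
The last 3 share 1 seed, and the seeds of miR-1 and miR-122 differ at a single base.

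In empty vector cells the transcripts spanned a wide range of level, here in RPKM, reads scaled to library size and gene length so that genes can be compared. The highest were ENO1 (enolase 1, 1276 ± 19.6 RPKM in batch 1, SD, n = 2, and 1249 ± 47.2 in batch 2, n = 3), GAPDH (977 ± 17.8 and 911 ± 9.91) and LDHB (802 ± 25.8 and 876 ± 48.0). PKM, pyruvate kinase of most non-hepatic tissues, followed at 494 ± 13.3 and 485 ± 26.5 RPKM. Citrate synthase (CS) lay in the middle, at 84.7 ± 0.597 and 83.3 ± 1.44 RPKM. The lowest tested genes were PDK1 (4.07 ± 0.478 and 3.43 ± 0.351 RPKM), the neuronal-type glucose transporter SLC2A3 (2.61 ± 0.105 and 2.57 ± 0.451), PFKFB2, which sets the level of a phosphofructokinase activator (2.59 ± 0.211 and 2.44 ± 0.237), and the brain aldolase ALDOC (1.76 ± 0.176 and 1.197 ± 0.235). The ranges of SLC2A3 and PFKFB2 overlapped in both batches, so their order is not resolved. The low places of PDK1 and PFKFB2 depend on their long annotated lengths, 14974 and 9542 bases.

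Genes that share a step differed widely in level. Per length, the ratio of ALDOA to ALDOC was 150 ± 7.3 (SD) in the batch 1 controls and 209 ± 47.0 in the batch 2 controls. SLC2A1 was 9.06 to 9.18 and 6.79 to 10.8 times SLC2A3, and HK1, the housekeeping hexokinase, was 2.63 to 2.77 and 2.55 to 2.72 times HK2. LDHA, the form of lactate dehydrogenase typical of lactate-producing tissue, was the lower one of its pair, at 0.242 to 0.251 and 0.221 to 0.231 times LDHB. PDK1 was also below PDK3, at 0.334 to 0.346 and 0.286 to 0.38 times its level per length. The annotated length of PDK1 is 14974 bases against 2513 for PDK3, which weighs on a level per length. In CPM, without scaling to length, the order was reversed. PDK1 was at 60.9 and 51.4 CPM on average in the batch 1 and batch 2 controls, and PDK3 at 30.1 and 25.5 CPM.

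**Figure D1:**
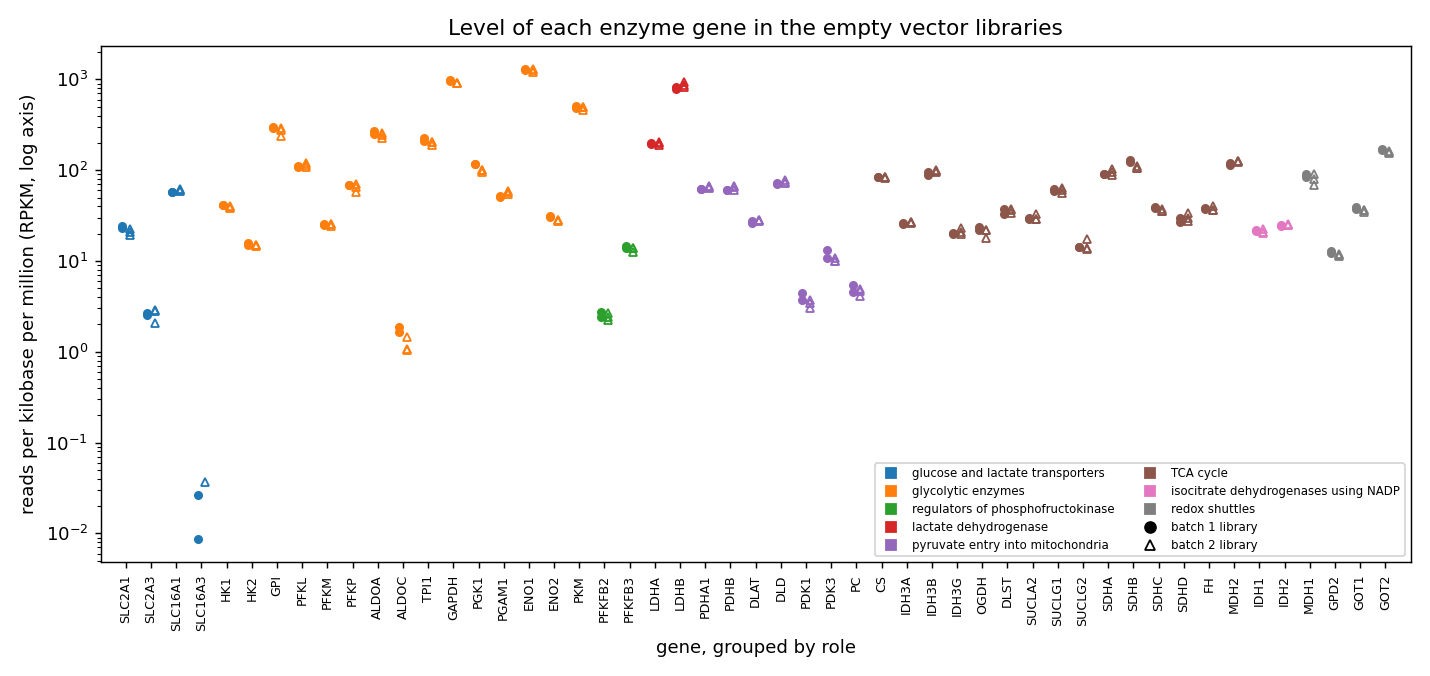
Level of each of the 51 genes in the empty vector libraries (y axis, RPKM on a log axis; x axis, genes grouped by role; filled circles, the 2 libraries of batch 1; open triangles, the 3 libraries of batch 2). ENO1 is at the top near 1276 RPKM, ALDOC is the lowest tested gene, and SLC16A3 is drawn only in the 3 libraries where it had reads, since 0 has no place on a log axis.

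Across the 7 comparisons with empty vector there were 51 calls of a higher member and 11 of a lower one (edgeR quasi-likelihood test, Benjamini-Hochberg adjusted over all genes of a batch, threshold 0.05). Over the 13972 genes tested in both batches the calls ran the other way, with 3729 higher and 5839 lower. Not all calls of members held in every fit that left out 1 library. In batch 2 the higher calls that did were 0 of 2 with miR-133a, 1 of 2 with miR-155 and 1 of 4 with miR-302a. With miR-372 they were 2 of 11 and with miR-373 1 of 4. Of the lower calls 2 of 3 held with miR-133a and 1 of 1 with miR-155. In batch 1 too, many higher calls rested on single libraries, as given below. The calls of members fell on 36 of 50, against 42.1% of all genes called at least once; 30 were higher at least once, against 18.9% of all genes, and 11 lower, against 26.8%. The other 14, called in none, were DLD, DLST, FH, GAPDH, HK1, IDH2, IDH3G, MDH1, PDHA1, PFKM, PGAM1, SDHD, SUCLG1 and SUCLG2. Called lower with one miRNA and higher with another were 5 genes, CS, HK2, IDH1, PFKFB3 and PKM. The median log2 fold change of the members was above that of all genes tested in each comparison, from 0.04 with miR-122 to 0.14 with miR-372, while the all-gene medians lay between -0.001 and 0.0057. The comparisons of a batch share their controls, so these medians are not independent of each other. The contrasts with all genes are descriptions, because the members were chosen with earlier results of these data known.

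**Figure D2:**
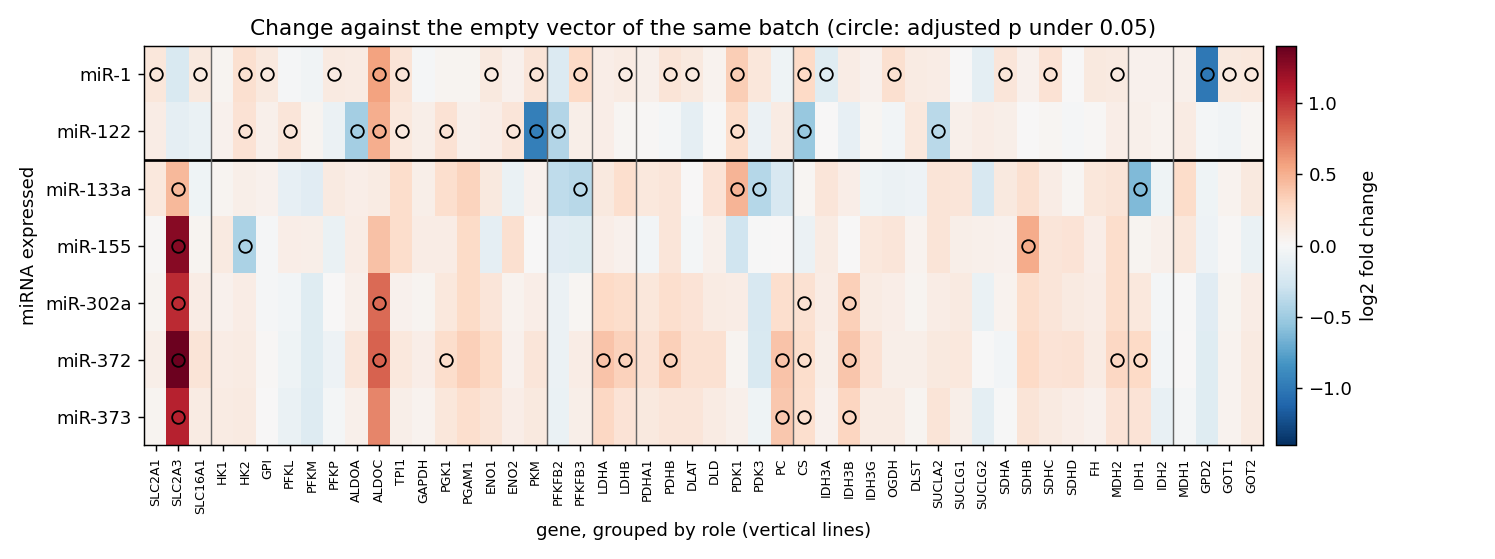
Log2 fold change (colour) of the 50 tested genes (x axis, grouped by role) with each miRNA (y axis) against the empty vector of its batch; the horizontal line parts batch 1 from batch 2, and a circle marks an adjusted p under 0.05. The strongest blue cells are GPD2 with miR-1 (-1.001) and PKM with miR-122 (-0.96), and the strongest red cells are SLC2A3 with the other miRNAs of batch 2 than miR-133a (1.05 to 1.37).

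With miR-122, 5 of 50 members were lower, against 4.06% of all genes tested, and 7 were higher, against 1.86% of all genes. The genes that fell were PKM and ALDOA of glycolysis, CS and SUCLA2 of the TCA cycle, and PFKFB2. Of 15 glycolytic enzymes 2 fell and 6 rose, and of 15 TCA cycle genes 2 fell, with a median log2 fold change of 0.02 over the 15. DESeq2 also called 5 lower, but 2 higher. Printed here are the seed matches (GRCh37, capitals) in the longest annotated 3′UTR of the 4 fallen genes that had one, with at most 11 bases on each side, because they are the places where the miR-122 seed could pair.
PKM 8mer: tcctgcagcaaACACTCCAccctccacctt
ALDOA 8mer: ggctgcccccaACACTCCAggccctgcccc
ALDOA 7mer-m8: tcaaggaaagtACACTCCgagcggtcagg
CS 7mer-m8: aggattaagatACACTCCtgctgtgcccc
PFKFB2 first 7mer-m8: aggaaaaagatACACTCCcttggggctga
PFKFB2 second 7mer-m8: gtgttttcctcACACTCCttacttgactg
PFKFB2 7mer-A1: aaggaattaagCACTCCAcgtgttttctt
The PKM match lies at chr15:72491464-72491471 (minus strand), the CS match at chr12:56665656-56665662 (minus strand) and the ALDOA 8mer at chr16:30081560-30081567 (plus strand). The ALDOA 7mer-m8 at chr16:30081466-30081472 is in the 3′UTR of one annotated transcript and in the open reading frame (ORF) of the longest coding one. The PFKFB2 matches start at bases 286, 461 and 4576 of a 3′UTR of 5446 bases on chromosome 1.

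PKM fell the most with miR-122. It had 1860 and 1932 CPM in the empty vector libraries and 972 and 978 CPM with miR-122. Both miR-122 libraries were near the midpoint between 0 and the controls, and the groups were far apart. The log2 fold change was -0.96 (SE 0.0364, adjusted p = 3e-13), a ratio of 0.514. ALDOA had 1080 and 1162 CPM in controls and 816 and 800 CPM with miR-122 (-0.47, SE 0.0417, adjusted p = 1.5e-07). CS, which joins acetyl-CoA to oxaloacetate, went from 262 and 265 CPM to 185 and 181 CPM (-0.53, SE 0.0401, adjusted p = 1.7e-08). In these 3 genes every miR-122 library was below every control library.

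SUCLA2, the ATP-forming subunit of succinyl-CoA ligase, fell from 83.0 and 82.0 CPM to 63.5 and 63.9 CPM with miR-122 (-0.37, SE 0.0486, adjusted p = 3.4e-05). It held no miR-122 seed match in its longest annotated 3′UTR or its ORF. PFKFB2 had 26.1 and 23.3 CPM in controls and 17.7 and 19.5 CPM with miR-122 (-0.41, SE 0.0824, adjusted p = 0.004). Its call was lost without miR-122 replicate 1 (-0.34, adjusted p = 0.11), whereas PKM, ALDOA, CS and SUCLA2 were called in all 4 fits that left out 1 library.

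The member that rose most with miR-122 was ALDOC, at 4.59 and 5.29 CPM in controls and 7.19 and 6.91 CPM with miR-122 (log2 fold change 0.51, SE 0.134, adjusted p = 0.026). So the higher-level aldolase fell and the lower-level one rose, and ALDOA was 74.8 to 76.2 times ALDOC per length in miR-122 cells. The other 6 were PDK1 (0.25), the phosphoglycerate kinase PGK1 (0.20), HK2 (0.20), the liver-type phosphofructokinase PFKL (0.17), the neuronal enolase ENO2 (0.17) and the triose phosphate isomerase TPI1 (0.14), with adjusted p between 0.0044 and 0.046. These rises rested on few libraries: without miR-122 replicate 1 none of the 7 was called (adjusted p 0.16 to 0.35), without miR-122 replicate 2 ALDOC, ENO2, PDK1 and TPI1 were not (0.061 to 0.14), and without 1 or the other control library ALDOC and TPI1 (0.16 and 0.21) or PDK1 (0.16) were not. PDK1 carried a miR-122 8mer at base 11912 of its 12700-base 3′UTR, PGK1 and ALDOC carried a 7mer-A1 each, and DLAT, the E2 subunit of pyruvate dehydrogenase, had an 8mer and a log2 fold change of -0.13 (adjusted p = 0.11).

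With miR-1, 2 of 50 members were lower, against 13.7% of all genes tested, and 21 were higher, against 10.8% of all genes. GPD2, the mitochondrial glycerol-3-phosphate dehydrogenase that passes cytosolic reducing equivalents to the respiratory chain, fell the most. IDH3A, the catalytic subunit of the NAD-dependent isocitrate dehydrogenase, fell slightly. An 8mer for miR-1 was present in the 3′UTR of each, and the 3′UTR matches of these 2 genes are the ones shown (GRCh37, capitals). IDH3A also held a 7mer-A1 in its ORF. In 2 other members an annotated 8mer did not go with a call: PDK3 held 2 of them and a 7mer-A1 and was at 0.16 (adjusted p = 0.14), and PFKFB2 held 1 and was at -0.195 (adjusted p = 0.083). The PDK3 8mers lie at bases 9255 and 11114 of an annotated 3′UTR of 11302 bases. The length counted for that gene is 2513 bases, so whether the counted transcripts hold these 8mers is not known.
GPD2 8mer: aacactagaaaACATTCCAaaactttaagg
GPD2 7mer-A1: tcttcaaaattCATTCCAagcacaaaaga
IDH3A 8mer: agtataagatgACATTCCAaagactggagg
The GPD2 8mer lies at chr2:157439554-157439561, 124 bases into its 3′UTR, and the IDH3A 8mer at chr15:78462396-78462403, both on the plus strand.

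GPD2 had 82.0 and 77.5 CPM in controls, 40.7 and 38.9 CPM with miR-1 and 75.8 and 80.5 CPM with miR-122. Both miR-1 libraries were far below the 4 others. The log2 fold change was -1.001 with miR-1 (SE 0.0559, adjusted p = 1e-10) and -0.03 with miR-122 (adjusted p = 0.82). IDH3A had 137 and 141 CPM in controls and 124 CPM in both miR-1 libraries (-0.17, SE 0.0453, adjusted p = 0.01). Its call was lost without miR-1 replicate 1 or replicate 2 (adjusted p = 0.084 in both).

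The 21 rises with miR-1 were small, from 0.11 to 0.57 on the log2 scale. They covered 7 of 15 glycolytic enzymes, 5 of 15 TCA cycle genes, 2 of 3 transporters, 3 of 7 genes of pyruvate entry into mitochondria, 2 of 4 shuttle genes, LDHB and PFKFB3. ALDOC rose the most, from 4.59 and 5.29 CPM to 7.33 CPM in both miR-1 libraries (0.57, SE 0.132, adjusted p = 0.004). PDK1, a kinase that turns pyruvate dehydrogenase off, was next (0.35, SE 0.065, adjusted p = 0.00067), followed by CS (0.28, adjusted p = 3.9e-05) and PFKFB3, whose product activates phosphofructokinase (0.27, adjusted p = 0.00072). HK2 and the oxoglutarate dehydrogenase subunit OGDH rose by 0.23 each (adjusted p = 0.002 and 0.0012), the succinate dehydrogenase subunit SDHC by 0.20 (0.0089), TPI1 by 0.18 (0.003) and the pyruvate dehydrogenase subunit PDHB by 0.18 (0.0056). PKM rose by 0.18 (adjusted p = 0.0012).

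Of the 50 members, called or not, 36 had both miR-1 libraries above both controls, against 29.7% of all genes tested, and 5 had both below, against 31.6%. HK2, ALDOC, PKM, PDK1, CS, OGDH and PFKFB3 were called in all 4 fits that left out 1 library, while SDHC, TPI1 and PDHB were not called without miR-1 replicate 1 (adjusted p 0.052 to 0.1). Of the 23 calls in both directions, 9 remained without miR-1 replicate 1 and 15 without miR-1 replicate 2. The summed level of the 51 genes was 17620 and 18060 CPM in the batch 1 controls, 19000 to 19270 CPM with miR-1 and 16940 to 17450 CPM with miR-122, so the groups did not overlap. The lower sum with miR-122 rested on PKM: without it the sum was 15970 and 16480 CPM with miR-122, overlapping 15760 and 16130 CPM in the controls, while with miR-1 it was 16880 and 17110 CPM.

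Set directly against miR-122, miR-1 cells had 15 members higher (15.2% of all genes were higher) and 6 lower (16.0% of all genes were lower). The largest difference was in PKM, 2.2 times as high with miR-1 (log2 fold change 1.14, SE 0.0365, adjusted p = 1.3e-14), then CS (0.80, adjusted p = 8.7e-12), ALDOA (0.58, adjusted p = 2.5e-09) and SUCLA2 (0.47, adjusted p = 4.3e-07). GPD2 was lower with miR-1 (-0.97, SE 0.0561, adjusted p = 9.6e-11), as were SUCLG2, the GTP-forming counterpart of SUCLA2 (-0.24, adjusted p = 0.0067), PFKL (-0.19), IDH3A (-0.18), PGK1 (-0.16) and GAPDH (-0.10, adjusted p = 0.042). Without miR-1 replicate 1, 3 members were lower and 10 higher, and without miR-122 replicate 2, 4 and 10. GPD2 and PKM therefore separated these miRNAs in opposite directions although their seeds differ at 1 base. ALDOC and PDK1, higher than controls with each, did not pass the test between them. The difference was 0.06 (SE 0.124, adjusted p = 0.77) for ALDOC and 0.10 (SE 0.0638, adjusted p = 0.26) for PDK1.

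**Figure D3:**
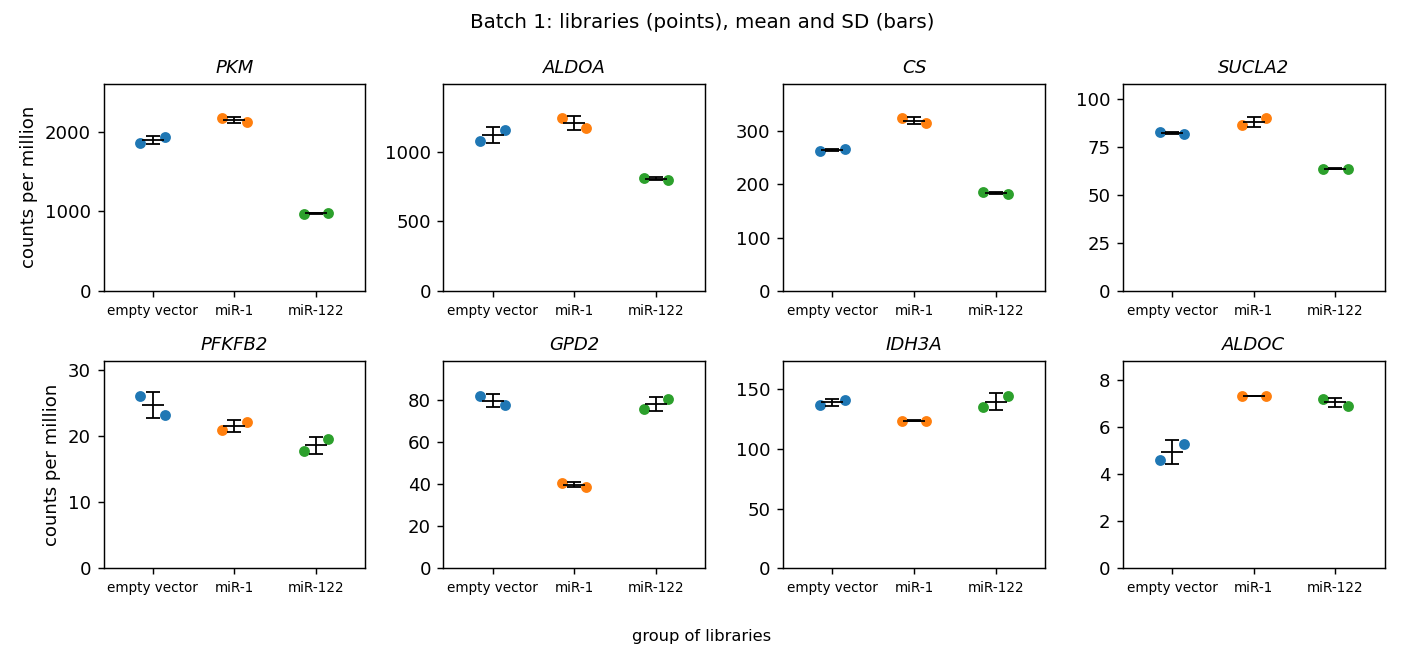
CPM (y axis, from 0) of 8 genes in the libraries of batch 1 (points, 2 a group; bars, mean and SD). PKM, ALDOA, CS and SUCLA2 are low in the miR-122 libraries alone, GPD2 and IDH3A in the miR-1 libraries alone, and ALDOC is above the controls with both.

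In batch 2 the largest change of any member was in SLC2A3, the high-affinity glucose transporter GLUT3. Its controls had 11.3, 8.04 and 10.9 CPM. With miR-155 it had 24.7, 24.9 and 23.2 CPM, with miR-372 27.9, 25.5 and 24.6 CPM, with miR-302a 23.8, 19.1 and 19.4 CPM, with miR-373 21.6, 21.0 and 21.2 CPM, and with miR-133a 13.6, 13.6 and 14.1 CPM. Every miRNA library of the batch was above every control library. The log2 fold changes were 1.37 with miR-372 (SE 0.116, adjusted p = 3.9e-07), 1.27 with miR-155 (SE 0.117, 1.2e-06), 1.08 with miR-373 (SE 0.117, 9.6e-06), 1.05 with miR-302a (SE 0.118, 1.6e-05) and 0.46 with miR-133a (SE 0.122, 0.033). All 5 comparisons use the same 3 control libraries.

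With miR-155 and the 3 miRNAs of shared seed, SLC2A3 was called in all 6 fits that left out 1 library, with adjusted p at most 0.00018. Without the 3 libraries that stood apart its log2 fold changes were 1.38 (miR-372), 1.26 (miR-155), 1.11 (miR-302a) and 1.08 (miR-373). The rise with miR-133a was called in 2 of 6 such fits, and was at its smallest without control replicate 2, the lowest control (0.32, adjusted p = 0.17). Leaving out replicate 1, 2 or 3 of miR-133a also ended it (adjusted p 0.076 to 0.11). In batch 1 SLC2A3 had 9.91 and 10.5 CPM in controls, and its log2 fold change was -0.21 with miR-1 (adjusted p = 0.19) and -0.12 with miR-122 (adjusted p = 0.6). The SLC2A1 to SLC2A3 ratio per length was 6.79 to 10.8 in the batch 2 controls and 2.81 to 4.98 over the libraries of miR-155 and the shared-seed miRNAs. Its near-identical neighbour SLC2A14 had 2 to 17 reads a library in batch 2, far fewer than SLC2A3. SLC2A3 rose although it held a 7mer-m8 for the shared seed, at base 1735 of its longest annotated 3′UTR of 2183 bases.

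With miR-133a, 3 of 50 members were lower, against 3.97% of all genes tested, and 2 were higher, against 1.37%. Without the 3 libraries that stood apart, none of them of miR-133a, the fit gave 4 lower and 10 higher. In that fit the calls over all genes with miR-133a went from 750 to 2277. Without control replicate 2 the fit gave 2 lower only, and without miR-133a replicate 2 or 3, 2 lower and 1 higher. The 3 that fell were IDH1, the cytosolic isocitrate dehydrogenase that makes NADPH, the pyruvate dehydrogenase kinase PDK3, and PFKFB3. Each held 1 match to the miR-133a seed, shown here because all of the fallen genes had one (GRCh37, capitals).
IDH1 7mer-A1: taattataaatGACCAAAatcaagattgc
PDK3 7mer-A1: ttgctccttgtGACCAAAtaccatatttg
PFKFB3 7mer-m8: caaaataacggGGACCAAtatttttaact
They lie at chr2:209101497-209101503 (minus strand), chrX:24557666-24557672 and chr10:6277070-6277076 (plus strand).

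IDH1 had 72.7, 68.5 and 66.1 CPM in controls and 43.8, 44.8 and 46.9 CPM with miR-133a. The 2 groups were far apart, and no other miRNA group of the batch was below its controls. The log2 fold change was -0.61 (SE 0.0748, adjusted p = 2.6e-05), and it was called in all 6 fits that left out 1 library. PFKFB3 went from 64.4, 71.6 and 70.5 CPM to 49.8, 51.5 and 56.9 CPM (-0.38, SE 0.0761, adjusted p = 0.0042), also called in all 6. PFKFB2, the other member of its family here, was at -0.35 and did not pass (adjusted p = 0.057).

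The kinase genes PDK1 and PDK3 moved in opposite directions with miR-133a. PDK3 had 24.8, 26.9 and 24.8 CPM in controls and 20.8, 20.3 and 17.1 CPM with miR-133a (-0.40, SE 0.104, adjusted p = 0.029). PDK1 had 56.3, 45.8 and 52.0 CPM in controls and 73.9, 70.0 and 70.9 CPM with miR-133a (0.48, SE 0.107, adjusted p = 0.01). The groups did not overlap in either gene, and the PDK1 to PDK3 ratio per length was 0.579 to 0.697 with miR-133a against 0.286 to 0.38 in controls. PDK3 was called in 1 of 6 fits that left out 1 library, losing its call without any single control (adjusted p 0.061 to 0.13), miR-133a replicate 2 (0.07) or replicate 3 (0.17). PDK1 lost its call without control replicate 2 (0.40, adjusted p = 0.069).

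With miR-155, 1 of 50 members was lower, against 4.81% of all genes tested, and 2 were higher, against 2.82%. HK2, an inducible hexokinase that binds mitochondria, fell from 88.7, 89.1 and 86.5 CPM to 70.8, 58.0 and 65.2 CPM. All 3 miR-155 libraries were below all 3 controls. The log2 fold change was -0.45 (SE 0.0867, adjusted p = 0.003), it was called in all 6 fits that left out 1 library, and it was -0.37 without the libraries that stood apart. HK2 held no miR-155 seed match in its 3′UTR or ORF. HK1 was at 0.12 (adjusted p = 0.27), and the HK1 to HK2 ratio per length was 3.75 to 4.08 with miR-155 against 2.55 to 2.72 in controls. With miR-1 and miR-122 HK2 was higher instead (0.23 and 0.20).

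SDHB, the iron-sulphur subunit of succinate dehydrogenase, had 129, 121.5 and 123 CPM in controls and 158, 234 and 142 CPM with miR-155. The highest value was that of miR-155 replicate 2, one of the libraries that stood apart. The log2 fold change was 0.51 (SE 0.125, adjusted p = 0.015), and 0.27 without that library (adjusted p = 0.091), or 0.27 with adjusted p = 0.0266 when all 3 libraries that stood apart were left out. Its call was also lost without control replicate 2 or 3 (adjusted p = 0.07 and 0.062).

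The family of miR-372, miR-373 and miR-302a is best known from pluripotent cells. No member was lower with any of the 3 when all libraries were used (edgeR and DESeq2 each called 0, and at an unadjusted p under 0.05 there were 2 with miR-302a, 1 with miR-372 and 1 with miR-373). Without miR-302a replicate 2, 1 member was lower with miR-302a, and without all 3 libraries that stood apart, 2 were. Over all genes the lower calls with miR-302a were 682 with all libraries, 985 without miR-302a replicate 2 and 1775 without the 3. Of all genes tested, 4.85% were lower with miR-302a, 6.56% with miR-372 and 3.3% with miR-373. Members that were higher numbered 4 with miR-302a, 11 with miR-372 and 4 with miR-373, against 3.02%, 4.82% and 1.83% of all genes in that order. The mean of the 3 groups against empty vector gave 11 members higher, against 6.28% of all genes, and 0 lower (edgeR, with 2 at an unadjusted p under 0.05, and 0 by DESeq2), against 9.11%. Without the 3 libraries that stood apart, 8 were higher with miR-302a, 9 with miR-372, 7 with miR-373, and 15 were higher and 2 lower in the mean. That fit also called more genes over all, in both directions together. Those calls went from 1107 to 3430 with miR-302a and from 1599 to 2019 with miR-372. With miR-373 they went from 721 to 1695, and in the mean from 2164 to 3823. Without 1 control library, 1 or 2 were called with miR-302a, 3 to 5 with miR-372, 1 or 2 with miR-373 and 5 in the mean. Without miR-302a replicate 1, 1 was called with miR-302a, without miR-372 replicate 2, 4 with miR-372, and without miR-373 replicate 1, 2 or 3, 2, 1 and 1 with miR-373 (7 in the mean without its replicate 1).

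Behind SLC2A3, ALDOC rose the most in this family. It had 4.13, 3.03 and 2.94 CPM in controls, 7.65, 4.65 and 5.19 CPM with miR-302a, 5.83, 5.79 and 6.16 CPM with miR-372 and 4.48, 5.60 and 5.88 CPM with miR-373. All 9 libraries of the family were above the 3 controls, by less in miR-302a replicate 2 and miR-373 replicate 1 than in the others. The log2 fold change was 0.82 with miR-372 (SE 0.197, adjusted p = 0.011), 0.79 with miR-302a (SE 0.2, adjusted p = 0.019) and 0.77 in the mean of the 3 groups (adjusted p = 0.0044). With miR-373 it was 0.68 (SE 0.197) and missed the threshold narrowly, with an adjusted p that rounds to 0.05. The call with miR-302a was lost without miR-302a replicate 1 (0.55, adjusted p = 0.14). Without control replicate 2 the adjusted p was 0.09 with miR-302a and 0.055 with miR-372, and without control replicate 3 it was 0.086 and 0.053.

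IDH3B, a regulatory subunit of the NAD-dependent isocitrate dehydrogenase, had 146, 151 and 154 CPM in controls, 198, 190 and 179 CPM with miR-302a, 193, 220 and 178 CPM with miR-372 and 195, 184 and 179 CPM with miR-373. No library of the family overlapped the controls. The log2 fold changes were 0.33, 0.39 and 0.31 (adjusted p = 0.015, 0.0043 and 0.031), and 0.34 in the mean of the 3 (SE 0.0671, adjusted p = 0.0019). With miR-372 it was called in all 6 fits that left out 1 library, with miR-302a in 3 and with miR-373 in 0.

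CS rose by 0.22, 0.24 and 0.23 with the 3 miRNAs (adjusted p = 0.047, 0.021 and 0.042), from 254, 261 and 263 CPM in controls to 292 to 327 CPM over the 9 libraries, but was called in 1, 2 and 0 of the 6 fits that left out 1 library. Pyruvate carboxylase (PC), which refills the cycle with oxaloacetate, rose by 0.40 with miR-372 and 0.37 with miR-373 (adjusted p = 0.021 and 0.048). LDHA and LDHB rose by 0.39 and 0.33 with miR-372 (adjusted p = 0.023 and 0.047), PDHB by 0.33 (0.024), the mitochondrial malate dehydrogenase MDH2 by 0.29 (0.047), IDH1 by 0.28 (0.019) and PGK1 by 0.24 (0.032). In LDHA the 3 controls were at 691, 636 and 680 CPM and the miR-372 libraries at 842, 1043 and 754 CPM, so the library that stood apart was the highest. Without miR-372 replicate 2 alone, LDHA (0.25, adjusted p = 0.14), LDHB (0.21, 0.23), PDHB (0.20, 0.15), MDH2 (0.25, 0.15), IDH1 (0.22, 0.1), PGK1 (0.17, 0.17) and PC (0.38, 0.052) were not called, and leaving out any 1 control library kept 3 to 5 of the 11 calls. MDH2 was called in 0 of the 6 such fits with miR-372, LDHB in 1, and PC with miR-373 in 1.

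The summed level of the 51 genes was 17140 to 17740 CPM in the batch 2 controls and 18490 to 19530 CPM with miR-302a, 18680 to 21950 with miR-372 and 18390 to 19340 with miR-373. The highest library was miR-372 replicate 2. With miR-155 the sum was 17090 to 19370 CPM, overlapping the controls, and with miR-133a 18010 to 19840 CPM; the part of single libraries in these sums was not tested.

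**Figure D4:**
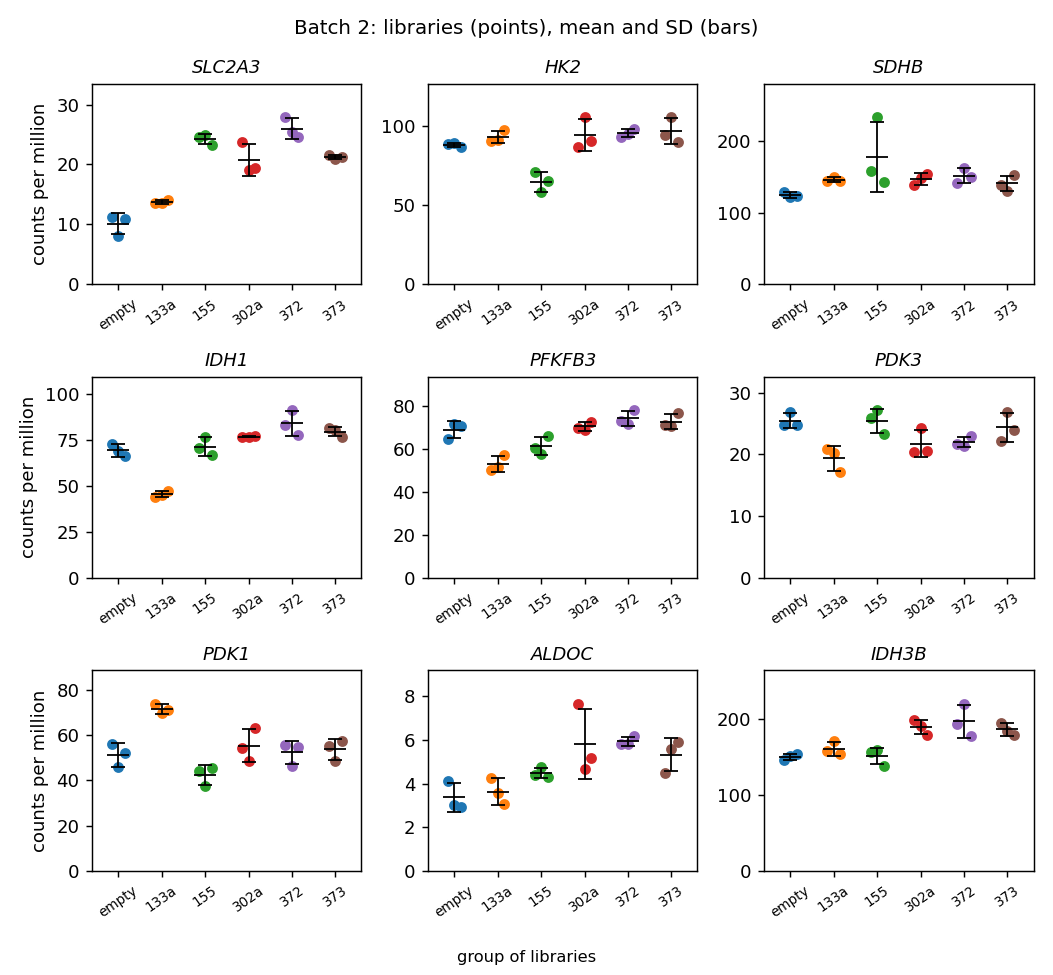
CPM (y axis, from 0) of 9 genes in the libraries of batch 2 (points, 3 a group; bars, mean and SD; x axis, empty vector and the number of each miRNA). SLC2A3 is above the controls in every group, HK2 is lowest with miR-155, IDH1, PFKFB3 and PDK3 are lowest with miR-133a, and the wide SDHB bar with miR-155 comes from 1 library at 234 CPM.

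ALDOA passed the test with miR-122 and in no other comparison with empty vector. With miR-1 it had 1244 and 1175 CPM, just above the batch 1 controls (0.11, SE 0.0414, adjusted p = 0.06). In batch 2 its controls had 977, 1047 and 1087 CPM and its log2 fold change was 0.10 with miR-133a, 0.11 with miR-155, 0.07 with miR-302a, 0.17 with miR-372 and 0.07 with miR-373, each with an SE of 0.106 and an adjusted p of 0.32 to 0.79. In each of these 5 groups its libraries overlapped the controls.

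Seed matches in the longest annotated 3′UTR were counted for all tested genes that have one. For miR-122, 16 of 50 members and 25.4% of all genes held at least 1 match, as did 4 of the 5 members that fell, 3 of the 7 that rose, and 60.5% of all genes that fell. Of all genes that rose with miR-122, 15.1% held one. For miR-1, 11 of 50 members and 24.0% of all genes held one, as did both members that fell, 3 of the 21 that rose, and 44.3% of all genes that fell. Of all genes that rose with miR-1, 16.5% held one. For miR-133a, 6 of 50 members and 17.1% of all genes held one, as did the 3 members that fell, PDK1, which rose, and 59.2% of all genes that fell. Of all genes that rose with miR-133a, 8.15% held one. For miR-155, 10 of 50 members and 19.1% of all genes held one, and 0 of the 1 member that fell, against 68.2% of all genes that fell. For the shared seed, 9 of 50 members and 29.9% of all genes held one, as did 2 of the 11 members that rose with miR-372, against 17.6% of all genes that rose and 55.1% of all genes that fell with it. PDK3 held 4 of these (1 of them an 8mer) and was at -0.23, -0.21 and -0.06 with the 3 miRNAs (adjusted p = 0.19, 0.19 and 0.81). The first of the 4 is at base 3302 of its annotated 3′UTR, beyond the 2513 bases counted for the gene. Whether the counted transcripts hold them is not known. A match is a description of letters and not proof of a bound site.

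Counting 8mer and 7mer-m8 matches alone, the 4 miR-122 genes and both miR-1 genes still held one, whereas of the miR-133a genes PFKFB3 alone did. The median log2 fold change of members with a match was -0.08 with miR-122 (0.07 without a match), -0.23 with miR-133a (0.11 without), 0.01 with miR-155 (0.09 without) and 0.06 with miR-1 (0.11 without). Over all genes the same medians were -0.04 and 0.01 for miR-122, -0.11 and 0.02 for miR-133a, -0.14 and 0.03 for miR-155, and -0.07 and 0.02 for miR-1. Members without a match thus lay above the other genes without one in all 4.

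**Figure D5:**
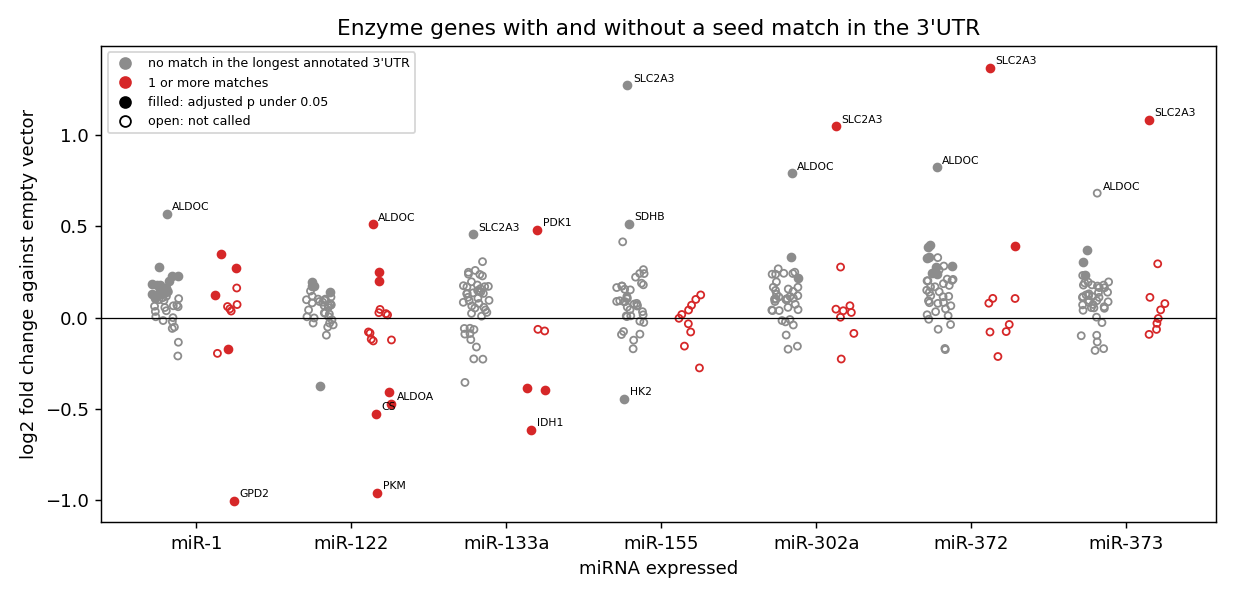
Log2 fold change (y axis) of the 50 tested genes with each miRNA (x axis), for genes without (grey) and with (red) a seed match in the longest annotated 3′UTR; filled points passed an adjusted p of 0.05. GPD2 with miR-1, PKM, CS and ALDOA with miR-122 and IDH1 with miR-133a are among the filled red points below 0. HK2 with miR-155 is a filled grey point below 0. Filled red points also lie above 0, among them SLC2A3 with miR-302a (1.05), miR-372 (1.37) and miR-373 (1.08). PDK1 with miR-133a (0.48) is another.

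A further 59 genes of these pathways (paralogues, regulators, carriers and assembly factors) were counted from a list, of which 47 were tested in batch 1 and 45 in batch 2. The median log2 fold change of the list lay between 0.004 and 0.05 in the 7 comparisons with empty vector. The share of all genes called is given beside each count. With miR-122, 3 fell (6.38% of the list, 4.06% of all genes) and 1 rose (2.13% and 1.86%). Those that fell included G6PC3, the ubiquitous glucose-6-phosphatase (-1.33, SE 0.0557, adjusted p = 9.7e-13) and PDPR (-0.28), and the one that rose was ME1 (0.16). With miR-1, 8 fell (17.0% of the list, 13.7% of all genes) and 7 rose (14.9% and 10.8%). The low-level transporter SLC2A10 was at -1.05, the citrate carrier SLC25A1 was at -0.57, the mitochondrial PEP carboxykinase PCK2 at -0.56, PGM2 at -0.51 and the ADP-dependent glucokinase ADPGK at -0.43, while SLC2A4 was at 0.69 and ATP-citrate lyase (ACLY) at 0.24. ME2, SDHAF3 and SDHAF4 (-0.31 to -0.17) were the other 3 that fell, and ACO1, SLC25A11, GLUD1 and GLUD2 (0.14 to 0.22) were also among those that rose. With miR-133a 2 fell (4.44% of the list, 3.97% of all genes), SDHAF4 (-0.81) and the glucose transporter SLC2A12 (-0.53). With miR-155 3 fell (6.67% of the list, 4.81% of all genes) and 2 rose (4.44% and 2.82%). Those that fell were OGDHL, GPD1L and PDP2 (-0.69 to -0.46), and those that rose were the mitochondrial pyruvate carrier MPC2 (0.54) and G6PC3 (0.34). With miR-302a 2 fell and 2 rose (4.44% each, against 4.85% and 3.02% of all genes), with miR-372 2 and 4 (4.44% and 8.89%, against 6.56% and 4.82%), and with miR-373 1 and 1 (2.22% each, against 3.3% and 1.83%). PDK4, a further pyruvate dehydrogenase kinase, fell with each of them (-0.71, -0.71 and -0.59, adjusted p = 0.015, 0.011 and 0.046), and the glutamate dehydrogenase GLUD1 rose with each (0.23, 0.28 and 0.25). SLC2A4 rose with miR-302a and miR-372 (1.02 and 1.03) while SLC25A12 fell with miR-302a (-0.32), and with miR-372 GPD1 (1.19) and G6PC3 (0.32) rose and GPD1L fell (-0.29). In the direct comparison 11 of the list were lower with miR-1 than with miR-122 (23.4%, against 16.0% of all genes) and 8 higher (17.0%, against 15.2%).

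A list of 18 hypoxia-related genes, of which 17 were tested, was counted beside the glucose transporters because many glycolytic genes respond to oxygen. It mixed hypoxia-inducible genes with genes of the hypoxia-inducible factors themselves (HIF1A, EPAS1 and ARNT). Its counts are therefore not a measure of a response to oxygen. With miR-122, 5 rose (29.4% of the 17, against 1.86% of all genes): P4HA2 (0.41), NDRG1 (0.32), DDIT4 (0.28), BNIP3 (0.21) and BNIP3L (0.20), and the median of the 17 was 0.13. The edgeR adjusted p was highest for BNIP3, at 0.042. How this list fared without 1 library or with DESeq2 was not examined, and the members that rose with miR-122 rested on few libraries. Over all genes DESeq2 called 405 with miR-122, 316 of them lower, against 849 and 582 by edgeR. With each of the 3 shared-seed miRNAs 2 rose (11.8%, against 3.02%, 4.82% and 1.83% of all genes with miR-302a, miR-372 and miR-373). These were NDRG1 (0.85, 0.87 and 0.72) and the factor gene EPAS1 (0.52, 0.63 and 0.75), while the medians of the 17 were -0.003, -0.01 and -0.06. With miR-372 BNIP3L fell (-0.28), 1 of 17 against 6.56% of all genes. With miR-133a BNIP3L fell (-0.48), 1 of 17 against 3.97% of all genes, with a median of -0.02. With miR-155, HIF1A, the oxygen-regulated factor itself, fell (-0.42, SE 0.0799, adjusted p = 0.0026), 1 of 17 against 4.81% of all genes, with a median of 0.02. With miR-1, P4HA1 and HIF1A fell (-0.25 and -0.12), 11.8% of the 17 against 13.7% of all genes, and the median was -0.01. Set directly against miR-122, miR-1 cells had 8 of the 17 lower (47.1%, against 16.0% of all genes) and 1 higher (5.88%, against 15.2%), with a median of -0.19.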

How the data were processed

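RNA was measured by polyA-selected, directional sequencing (NEBNext Ultra II, 1000 ng total RNA) in 24 libraries. Per the submitters' processing notes and the study's methods, the authors aligned reads to hg19 (GRCh37) with TopHat2 2.1.1 and counted strand-matched exon reads of mapping quality 50 or more per gene with featureCounts. The deposited values are raw read counts per gene for each batch, with a gene length that was used here for RPKM. The deposited edgeR 3.24.3 tables hold the authors' fold changes, mean log2 CPM and p-values and were not used. Per batch, edgeR 4.0.16 (R 4.3.3) was run with filterByExpr (minimum count 10), TMM and the quasi-likelihood test over all groups, with Benjamini-Hochberg adjustment over all genes and a threshold of 0.05. CPM and RPKM used TMM-scaled totals. A call means an adjusted p below the threshold. Values are means ± SD over libraries. DESeq2 1.42.0, other filters and scalings, a replicate block and left-out libraries were alternatives. Seed matches were read from GENCODE v44 lift37 transcripts on GRCh37. Gene identifiers were matched for 28543 of 29794 genes. The scripts were tested on simulated counts. In each comparison with empty vector the rule named every called member or, above 10, the 10 with the largest log2 fold change, plus ALDOA throughout, fixed pairs of members with the same role and called genes of the other pathway list. IDH3A and PKM with miR-1, the smallest changes with miR-122 and miR-372, members given as not called, and those of the direct comparison were named after their values were seen. A few called genes and 1 seed match are not reported here. The members, gene lists and this rule were chosen with earlier results of these data known. Pseudogene copies (65 named after GAPDH and 13 after PGAM1) and genes overlapping on the same strand (among them ALDOA, ALDOC, CS, IDH3A, PDK3, PFKFB3, SLC2A3 and SUCLA2) leave their counts uncertain.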

Additional observations from a re-analysis of the deposited data

How the results depend on the processing

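Over 114 counts of called members under an alternative, 82 stayed within 1.5 times the reported count and 32 did not; of 701 log2 fold changes of called members, 542 stayed called, 159 lost their call and 0 reversed. The DESeq2 Wald test gave 7 with miR-122 against 12. Fitting only the groups compared gave 13 with miR-133a against 5, and 4 with miR-372 against 11. Leaving out 3 libraries at once, an alternative chosen after seeing the data, gave 14 with miR-133a, 10 with miR-302a, 7 with miR-373 and 17 for the mean of the shared-seed groups. In that fit the calls over all genes rose as well. Leaving out 1 library gave 9 to 25 members with miR-1, 4 to 14 with miR-122, 13 to 17 for miR-1 against miR-122, 2 to 4 with miR-133a, 1 to 6 with miR-302a, 3 to 12 with miR-372, 1 to 2 with miR-373 and 5 to 15 for the mean of the shared-seed groups. The lowest counts came without miR-1 replicate 1 (9, and 13 against miR-122), miR-122 replicate 1 (4), a control library of batch 2 (2 with miR-133a, 1 with miR-302a, 3 with miR-372, 1 with miR-373 and 5 for the mean) and miR-302a replicate 1 (1); without miR-372 replicate 2, 4 remained with miR-372. In batch 1 such a fit leaves 1 library in a group, which is assumed to vary like the others. The causes were not tested, apart from the fewer libraries of such fits.

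For same-numbered libraries of a miRNA group and its empty vector, r was -0.186 to 0.22. With miR-373 it was above 0 in every replicate (0.22, 0.148 and 0.029), and with no other miRNA was it so. Some pairs of miRNA groups in batch 2 deviated together more strongly, with r of 0.273, 0.614 and 0.451 for miR-155 with miR-372. The 3 libraries that stood apart were all replicate 2. With a replicate block the calls over all genes went from 750 to 1308 with miR-133a and from 1073 to 1663 with miR-155. With miR-1 they went from 3520 to 2939. The labels do not say what same-numbered libraries share, so pairing in batch 2 is not settled. A replicate block gave 17 members with miR-1, 10 with miR-122, 19 for miR-1 against miR-122, 7 with miR-133a, 4 with miR-155, 4 with miR-302a, 13 with miR-372, 6 with miR-373 and 16 for the mean of the shared-seed groups. Depth limits the low genes most: ALDOC and SLC2A3 had few reads a library, and SLC16A3 could not be tested.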
